A study of Mus musculus with 231 samples.

Results

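The miR-17-92 cluster is a group of microRNAs (miRNAs) cut from 1 primary transcript, and 7 of its mature products were followed here in mouse blood. They were mmu-miR-17-5p, mmu-miR-17-3p, mmu-miR-18a-5p, mmu-miR-19a-3p, mmu-miR-19b-3p, mmu-miR-20a-5p and mmu-miR-92a-3p, taken by name and not by their values. All 7 were among the 1863 miRNAs of the training count table, the 1895 of the training table of CPM (reads scaled to a common library size) and the 1817 of the validation CPM table.

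Small RNA was sequenced from PBMC (mononuclear cells of peripheral blood) of C57BL/6 mice, to follow blood miRNAs while leukemia developed from Cbfb-MYH11 (CM), the fusion gene of inv(16) acute myeloid leukemia. CM mice had the Cbfb56M/+ knock-in allele with Mx1-Cre, a recombinase gene that responds to interferon and is therefore not limited to blood cells. The fusion was induced with poly(I:C), 7 doses of 14 mg/kg every other day, starting at 6 to 8 weeks of age. Control (Ctrl) mice were littermates of the same age that were injected in the same way. The labels describe them as free of the transgene, whereas the study's methods also count littermates with the Cbfb56M/+ allele but no Mx1-Cre among the controls, so a Ctrl mouse may hold the allele in its unrecombined form. Genotype was given as CHW for each CM mouse and as HW, CW or WT for Ctrl mice, and the sources do not explain these codes. The training cohort comprised 7 CM mice with 53 libraries and 7 Ctrl mice with 76 libraries, from month 0, before induction, to month 10. Both arms of this cohort held females and males, with more females among the CM mice and more males among the Ctrl mice. Mice 3338 and 3357 had their last CM library at month 4, mouse 3341 at month 6, mouse 3334 at month 6.5, mouse 3336 at month 7, mouse 3370 at month 9 and mouse 3368 at month 10. In the validation cohort 10 CM mice gave 60 libraries and 6 Ctrl mice gave 42.

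Training libraries held 1792809 to 7958411 counts (median 4437464), and no member was at 0 in any of them. Of the validation libraries, the 12 of sampling point 5 held 1645456 to 5445215 reads and the other 90 held 1744 to 76906 reads, so the validation cohort was compared at point 5 only. miR-142a-3p and miR-142a-5p, which mark blood cells of all lineages, summed to 62174 to 109599 CPM at month 0, and miR-122-5p, which marks liver, did not exceed 17.0 CPM in the training libraries. Library titles also carried a number from G1 to G7 that is not explained: at month 3 the Ctrl libraries were in G1 to G3 and the CM libraries in G3 to G5, so arm and G number overlapped in G3 only. At month 4 no G number held libraries of both arms, and arm and G number cannot be told apart there.

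The primary transcript of the cluster is transcribed under the control of MYC among other factors, and its hairpins are released by Drosha and cut by Dicer into mature strands. The mature miRNAs fall into families that share a seed, the bases that pair with target mRNAs. In blood the cluster is known for its part in lymphoid and myeloid progenitors, where it represses the pro-apoptotic gene Bcl2l11, and miR-17-5p and miR-20a-5p are known to repress Runx1, which encodes the DNA-binding partner of Cbfb. The related cluster miR-106b-25 lies within the Mcm7 gene, and the related cluster miR-106a-363 lies on the X chromosome.

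In the mm9 build the 6 hairpins of the cluster lay within 836 bases, chr14:115442893-115443728, on the plus strand. All 6 lay in exons of both of the 2 transcripts annotated for the host gene Mir17hg (chr14:115442101-115445949). The order along the transcript was Mir17 (chr14:115442893-115442976), Mir18 (chr14:115443073-115443168), Mir19a (chr14:115443222-115443303), Mir20a (chr14:115443379-115443485), Mir19b-1 (chr14:115443527-115443613) and Mir92-1 (chr14:115443649-115443728). The mature miR-19b-3p and miR-92a-3p are each also cut from a second hairpin on the X chromosome, Mir19b-2 (chrX:50095160-50095243) and Mir92-2 (chrX:50095015-50095105), both on the minus strand. A level of these members is therefore the sum of 2 loci, whereas the other 5 members come from 1 hairpin each.

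The 7 mature sequences are shown because the seed families and the near-identical strands decide which members can be told apart by sequencing. They are given 5′ to 3′ from RefSeq (GRCm38.p6), and capitals mark the seed, bases 2 to 8.
miR-17-5p: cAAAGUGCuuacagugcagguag
miR-20a-5p: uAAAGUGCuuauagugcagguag
miR-18a-5p: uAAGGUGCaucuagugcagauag
miR-19a-3p: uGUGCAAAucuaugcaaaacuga
miR-19b-3p: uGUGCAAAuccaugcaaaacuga
miR-92a-3p: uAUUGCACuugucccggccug
miR-17-3p: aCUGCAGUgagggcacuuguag

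miR-17-5p and miR-20a-5p shared 1 seed and differed at 2 of 23 bases. miR-19a-3p and miR-19b-3p shared another seed and differed at 1 base, position 11 from the 5′ end. miR-18a-5p had a seed that differed from that of miR-17-5p by 1 base, and miR-92a-3p and miR-17-3p had seeds that no other member had. Strands of the related clusters that come closest to a member are shown next, since reads of a member could be assigned to them.
miR-106a-5p: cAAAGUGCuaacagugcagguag
miR-20b-5p: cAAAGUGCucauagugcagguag
miR-18b-5p: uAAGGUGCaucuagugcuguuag
miR-25-3p: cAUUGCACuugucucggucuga

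miR-17-5p differed from miR-106a-5p at 1 base and from miR-20b-5p at 2 bases, miR-18a-5p from miR-18b-5p at 2 bases and miR-92a-3p from miR-25-3p at 3 of 21 aligned bases. The levels of all these miRNAs are uncertain to the extent that the authors' counting moved reads between them.

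The training cohort was deposited in 2 countings of the same libraries, and they differed for the cluster. From here on CPM refers to the count table scaled with edgeR's TMM method (trimmed mean of M-values), unless the deposited CPM is named. The deposited CPM could be turned back into whole reads, and the count table held a median of 133.9% of these reads in CM and 130.4% in Ctrl libraries for miR-17-5p. Over both arms the median was 120.7% for miR-17-3p, 115.6% for miR-18a-5p, 108.5% for miR-19a-3p and 117.3% for miR-20a-5p. For these 5 members the percentage stayed within 104.8% to 171.5% in all libraries. For miR-19b-3p it was 50.9% and ran from 1.67% to 101.2%, and for miR-92a-3p it was 144% and ran from 45.9% to 207%.

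The percentage was not the same in both arms or at all months. For miR-19b-3p the median was 65.03% in CM and 45.29% in Ctrl libraries. At month 3 it was 90.05% in CM and 13.2% in Ctrl libraries, and at month 0 it was 57.23% and 12.02%. For miR-92a-3p the median was 98.3% in CM and 147% in Ctrl libraries, and the medians for single G numbers lay between 94.8% and 155%. The other 5 members are therefore described by the counts, and miR-19b-3p and miR-92a-3p by both tables.

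**Figure D1:**
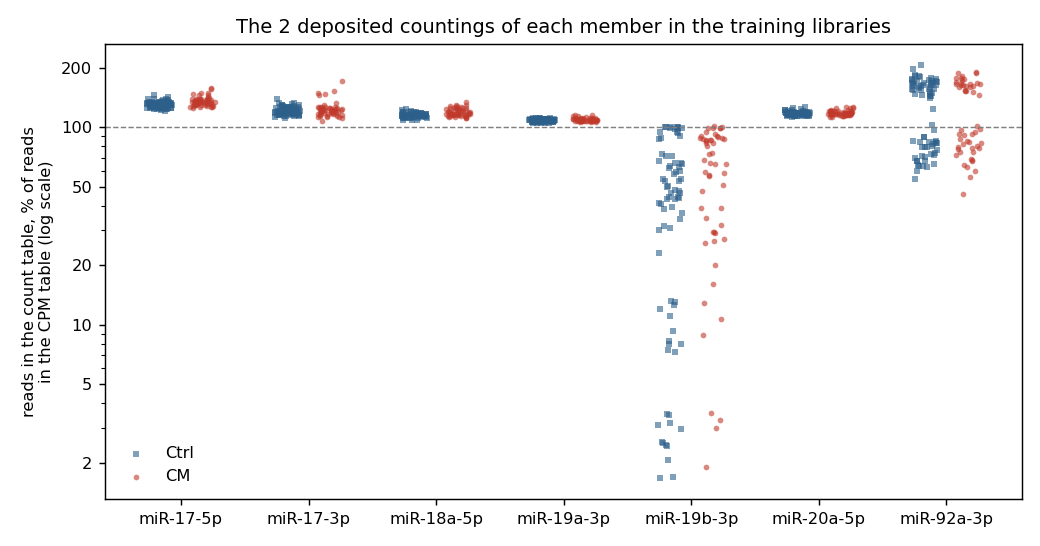
Reads of each member in the count table as a percentage of the reads recovered from the deposited CPM table (log scale), 1 point per training library (53 CM, 76 Ctrl). Points of 5 members lie in a narrow band above the dashed line at 100%, whereas those of miR-19b-3p spread down to 1.67% and those of miR-92a-3p from 45.9% to 207%.

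The 7 members were present at very different levels. Over all training libraries the median was 9352.5 CPM for miR-92a-3p, 7694.5 CPM for miR-20a-5p and 2850 CPM for miR-17-5p. It was 1551 CPM for miR-19b-3p, 1092.5 CPM for miR-19a-3p, 610.6 CPM for miR-18a-5p and 293.3 CPM for miR-17-3p. Mature miRNAs are of nearly equal length, so these levels per library were not corrected for length.

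miR-20a-5p exceeded miR-17-5p in every training library, miR-19a-3p exceeded miR-18a-5p in every library, and miR-18a-5p exceeded miR-17-3p in all but 1. The order of miR-92a-3p and miR-20a-5p was not fixed, as miR-92a-3p was higher in 78 libraries and miR-20a-5p in 51. The place of miR-19b-3p depended on the table: miR-17-5p exceeded it in all but 28 libraries in the counts, whereas it exceeded miR-17-5p in all but 12 in the deposited CPM, where its median was 3728 CPM.

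miR-92a-3p made up a median of 39.1% of the cluster's summed CPM, miR-20a-5p 31.04%, miR-17-5p 12.1% and miR-19b-3p 6.61%, or 15.8% in the deposited CPM. miR-19a-3p made up 4.55%, miR-18a-5p 2.51% and miR-17-3p 1.18%. The range over libraries was narrowest for miR-17-3p, from 205.0 to 628.3 CPM, and wide for miR-20a-5p, from 767.2 to 15482 CPM. The lowest levels of miR-17-5p (764.0 CPM), miR-18a-5p (131.4 CPM) and miR-20a-5p (767.2 CPM) all came from 1 library, month 2 of Ctrl mouse 3349, which also had the highest level of miR-17-3p (628.3 CPM). That library stands apart from the other Ctrl libraries of month 2, and results that rest on it are given with and without it.

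**Figure D2:**
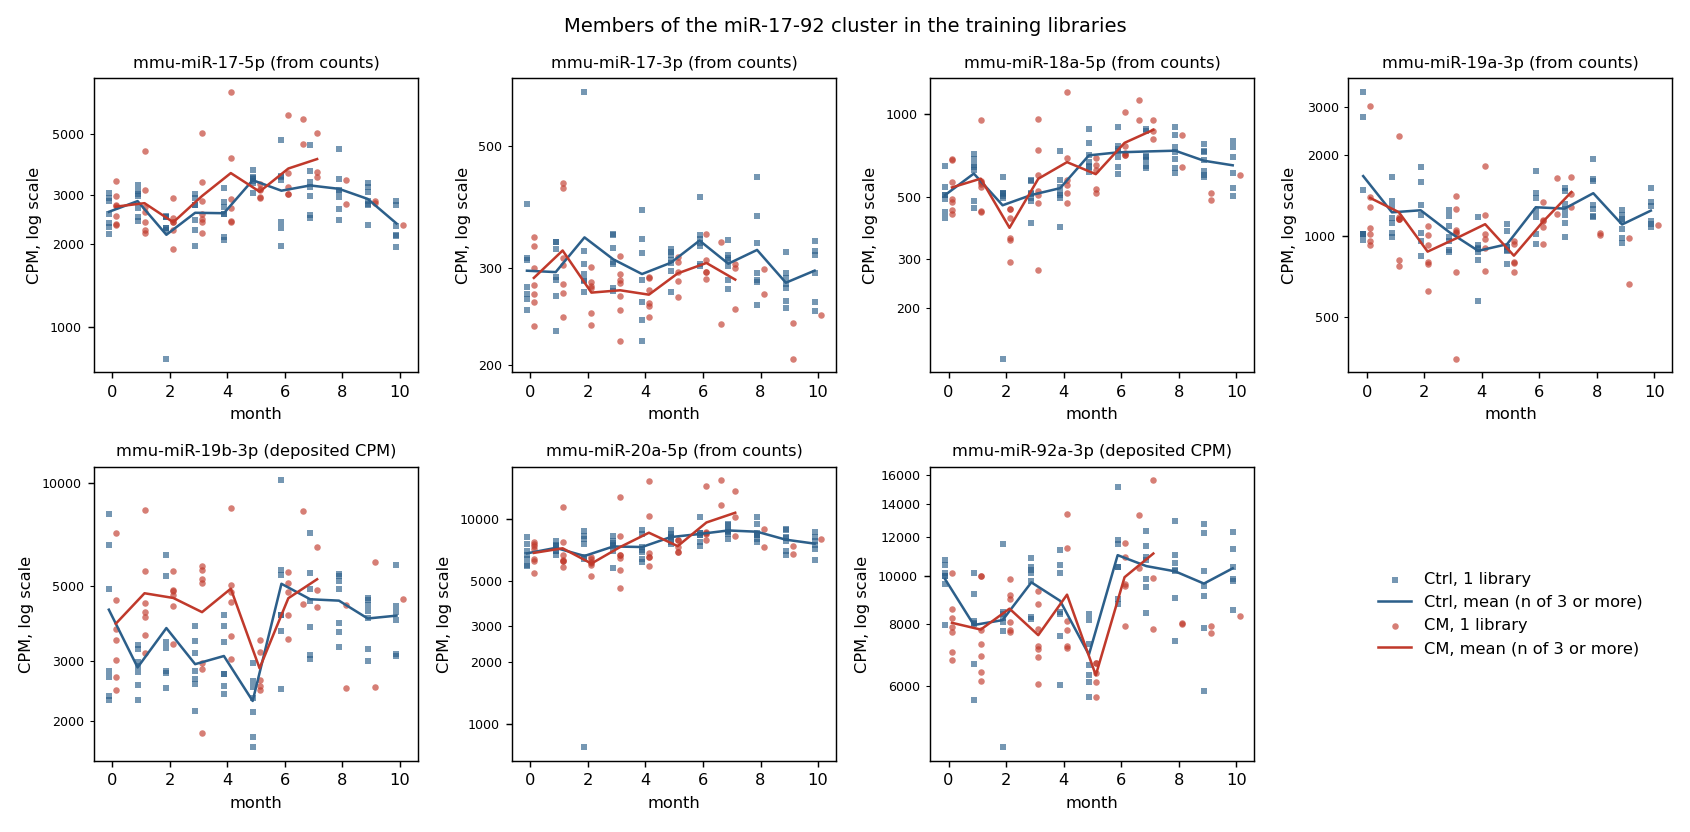
CPM (log scale) of each member against month, 1 point per training library and a line through the mean of each arm where at least 3 libraries were present. miR-19b-3p and miR-92a-3p are drawn from the deposited CPM and the other members from the counts. CM and Ctrl points overlap for every member at months 0 to 3, and the low Ctrl points at month 2 in the panels of miR-17-5p, miR-18a-5p and miR-20a-5p are mouse 3349.

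miR-17-5p, miR-18a-5p and miR-20a-5p varied together over the libraries. Pearson's r of log2(CPM + 1) was 0.804 for miR-17-5p and miR-18a-5p, 0.812 for miR-17-5p and miR-20a-5p and 0.855 for miR-18a-5p and miR-20a-5p, over all training libraries, which come from 14 mice and share mice, months and depth. For the strands of the Mir17 hairpin, miR-17-5p and miR-17-3p, r was -0.06. miR-19a-3p and miR-19b-3p, which share a seed, had an r of 0.08 in the counts and 0.62 in the deposited CPM. Without the month 2 library of mouse 3349 the first 3 values were 0.752, 0.784 and 0.84, that of miR-17-5p and miR-17-3p was 0.17, and those of miR-19a-3p and miR-19b-3p were 0.09 and 0.64.

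Other than the 7 members, the miRNAs whose levels were most like their mean were miR-93-5p (r = 0.498), miR-505-3p (0.474), miR-15a-5p (0.468), miR-106b-5p (0.458) and miR-30e-5p (0.444), of 331 candidates with a mean of at least 10 CPM. In the deposited CPM they were miR-15a-5p (0.692), miR-18a-3p (0.682), miR-93-5p (0.647), miR-25-3p (0.631) and miR-106b-5p (0.628), of 339 candidates. Of these, miR-18a-3p is itself a strand of the cluster, cut from the same hairpin as miR-18a-5p. In the counts the miRNA most like miR-17-3p was miR-106b-5p (0.526) and the one most like miR-19a-3p was miR-15a-3p (0.72). In the deposited CPM miR-17-3p was again most like miR-106b-5p (0.617), and miR-19a-3p was most like miR-19b-3p (0.623). There miR-19b-3p itself was most like let-7c-2-3p and let-7a-1-3p (0.76 each), and miR-92a-3p was most like let-7c-5p (0.668). All these values are descriptions of the same libraries.

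CM and Ctrl mice were compared at months 0 to 6 to ask whether the cluster differed after induction. Months 4 and 6 include the last libraries of mice 3338 and 3357 and of mouse 3341, which also enter the mouse means over months 1 to 6. In the counts no member passed the test in any of the 7 months. miR-17-5p in CM mice was 2731 ± 368 CPM (SD, n = 7) at month 0, against 2615 ± 343 CPM (n = 7) in Ctrl mice. The pairs were 2812 ± 755 against 2861 ± 322 CPM at month 1 and 2986 ± 993 against 2594 ± 391 CPM at month 3 (n = 7 each). At month 6 the CM level of 3759 ± 1202 CPM (n = 5) stood against 3122 ± 971 CPM (n = 7), and the ranges overlapped at each of these months.

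miR-20a-5p in CM mice was 6852 ± 841 CPM at month 0, against 6818 ± 840 CPM in Ctrl mice, and 7218 ± 1962 against 7251 ± 374 CPM at month 1 (n = 7 each). The CM spread at month 1 came from mouse 3336 at 11440.5 CPM, whereas the other 6 CM mice lay between 5830 and 7776 CPM. At month 4 miR-17-5p in CM mice was 3618 ± 1840 CPM (n = 6), against 2585 ± 399 CPM (n = 7) in Ctrl mice. The log2 difference was 0.59 (SE 0.29, adjusted p = 0.313), and the highest CM value of 7148 CPM was the last library of mouse 3338.

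The background shows what these counts of 0 members mean. At month 0, 0.209% of 478 miRNAs tested were called in the counts and 0.0% of 473 in the recovered reads, where 67 were under 0.05 before adjustment. At month 1, 27.5% of 472 miRNAs were called in the counts and 31.4% of 468 in the reads. At month 2 the shares were 13.5% of 481 and 22.2% of 481, and at month 3 they were 22.0% of 455 and 27.8% of 450.

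At month 4, 0.837% of 478 miRNAs were called in the counts and 2.11% of 475 in the reads. At month 5 the shares were 0.0% of 505 and 0.0% of 495, with 21.6% and 23% of miRNAs under 0.05 before adjustment. At month 6 they were 0.0% of 444 and 0.0% of 443, with 6.98% and 8.58% under 0.05 before adjustment. A call means an edgeR quasi-likelihood p under 0.05 after Benjamini-Hochberg adjustment over all miRNAs tested. In the counts the cluster's 0 of 7 thus stood beside more than 1 in 8 miRNAs at months 1 to 3. At months 0 and 4 to 6 it stood beside nearly none. In the reads 1 of 7 members was called at month 1 (miR-19b-3p) and 1 of 7 at month 2 (miR-19a-3p).

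The size of the differences was read in the same way. The median absolute log2 difference of the 7 members was 0.10 at month 1 against 0.44 over all miRNAs tested, 0.28 against 0.40 at month 2 and 0.13 against 0.37 at month 3. At month 4 the members' median was 0.40 against 0.39. It was also the smaller at month 0, before induction (0.08 against 0.22), at month 5 (0.10 against 0.31) and at month 6 (0.19 against 0.28). The smaller differences of the members were thus not limited to the months after induction.

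At month 1 the 7 erythroid markers (arms of miR-451a, miR-144, miR-486a and miR-486b) were all called higher in CM mice, with a median log2 difference of 2.71. Their summed level was 53405 to 622569 CPM in CM libraries (median 67187) and 28313 to 69679 CPM in Ctrl libraries (median 36921). The sums of 622569 CPM in CM mouse 3336 and 423424 CPM in CM mouse 3368 stood far above the next CM value of 90962 CPM, and when 1 or the other was left out 6 of 7 markers were called (median 2.28 without mouse 3336 and 2.24 without mouse 3368). A fit that included the G number called 0 of 7 and gave a median of 1.54. Of 5 progenitor markers 3 were called higher (miR-126a-3p, miR-126a-5p and miR-196b-5p), and their summed level was 1274 to 2179 CPM in CM and 1072 to 1584 CPM in Ctrl libraries. In the same fit the members ranged from -0.16 to 0.11. In bulk PBMC fewer cells of a type and less RNA per cell cannot be told apart, and the part of cell make-up in these values was not tested.

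**Figure D3:**
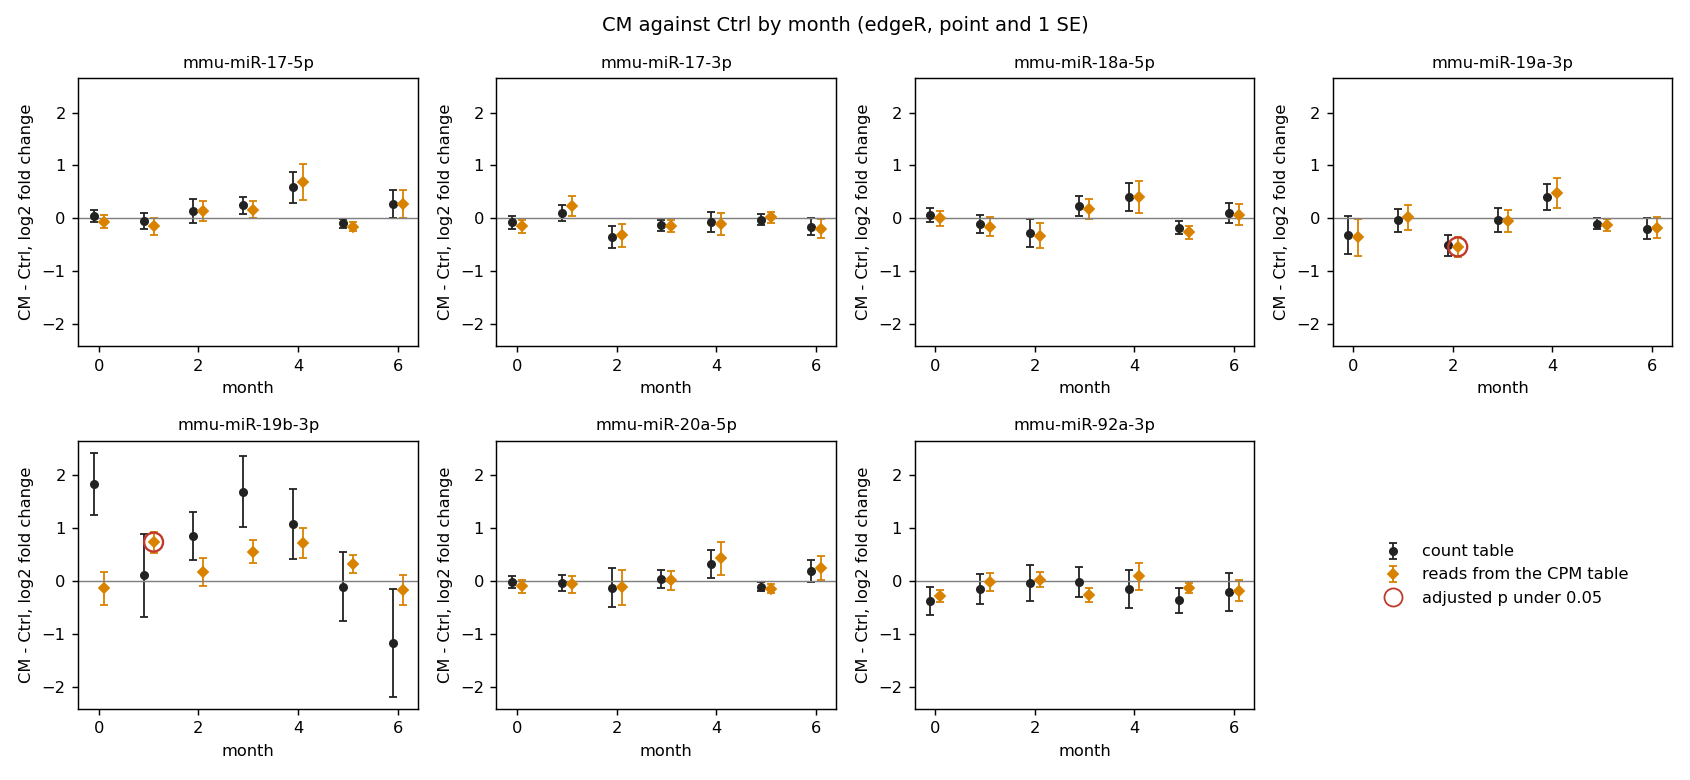
CM minus Ctrl log2 fold change of each member at months 0 to 6 from edgeR, with bars of 1 SE, from the count table (black) and from the reads of the CPM table (orange). Red rings mark an adjusted p under 0.05, which was met by miR-19b-3p at month 1 and miR-19a-3p at month 2, in the reads only. The bars of miR-19b-3p in the counts are the longest.

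miR-19b-3p, a member with 2 hairpins, was the 1 member whose result at month 1 depended on the table. In the deposited CPM it was 3167.1, 4169.2 and 8324.0 CPM (lowest, median and highest of 7) in CM mice and 2310.8, 2899.2 and 3345.6 CPM in Ctrl mice. Most CM libraries lay above the Ctrl range, and the lowest CM library lay within it. The recovered reads gave a log2 difference of 0.73 (SE 0.20, adjusted p = 0.0114 by edgeR), which was called in 14 of 14 fits that left out 1 mouse (0.59 to 0.83).

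The counts gave 73.59, 1405.5 and 3336.5 CPM in CM mice and 56.58, 1586.5 and 2653.1 CPM in Ctrl mice at the same month. These ranges overlapped almost wholly, and the log2 difference was 0.11 (SE 0.78, adjusted p = 0.926). At month 3 the difference was 1.69 (SE 0.67, adjusted p = 0.0798) in the counts and 0.55 (SE 0.22, adjusted p = 0.0635) in the reads. Here the counts ran from 1428 to 4783 CPM in CM mice, against 57.87 to 3030 CPM in Ctrl mice. DESeq2 called this difference (1.68, adjusted p = 0.0292), and edgeR did without Ctrl mouse 3342 (2.23, adjusted p = 0.0283). In the reads it was called without CM mouse 3334, 3336 or 3370 or Ctrl mouse 3342 or 3346 (0.62 to 0.71), and without CM mouse 3334 so was miR-92a-3p (-0.32, adjusted p = 0.0342).

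miR-19a-3p, its near-identical partner, went the other way at month 2. It was 623.8, 865.2 and 1092.5 CPM (lowest, median and highest of 6) in CM mice and 844.4, 1198.0 and 1798.1 CPM (of 7) in Ctrl mice. The groups overlapped, with the CM median near the lowest Ctrl value, and the log2 difference was -0.51 (SE 0.20, adjusted p = 0.0977) in the counts. In the reads it was -0.54 (SE 0.18, adjusted p = 0.0462), and only 4 of 13 fits that left out 1 mouse kept that call, the other 9 giving -0.59 to -0.45 with adjusted p up to 0.103.

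The month 2 library of mouse 3349 decided several of these values. Without this mouse the counts called miR-18a-5p (-0.44, SE 0.12, adjusted p = 0.0179), miR-19a-3p (-0.59, SE 0.19, adjusted p = 0.0328) and miR-20a-5p (-0.32, SE 0.10, adjusted p = 0.0276) lower in CM mice at month 2. With it the log2 differences were -0.28 for miR-18a-5p and -0.13 for miR-20a-5p, and neither passed.

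The arms were also compared by the change from month 0, in a test of the interaction of arm and month. From month 0 to month 1, 8.46% of 520 miRNAs were called in the counts and 13.0% of 514 in the reads, and no member was called. From month 0 to month 3, 2.33% of 515 were called in the counts and 2.59% of 502 in the reads, and again no member was called. For miR-19b-3p the change to month 1 was larger in CM mice by 0.83 on the log2 scale in the reads (adjusted p = 0.133).

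Each mouse was then given 1 value, the mean of log2(CPM + 1) over months 1 to 6. In the counts 27.1% of 815 miRNAs were called by limma and none of the 7 members was, with differences from -0.18 for miR-92a-3p to 0.14 for miR-17-5p, and 0.82 (SE 0.47, adjusted p = 0.207) for miR-19b-3p. In the deposited CPM 28.8% of 815 were called, and miR-19b-3p was the 1 member among them. Its geometric means in the 7 CM mice were 2930, 3752, 4211, 4317, 4364, 4615 and 5554 CPM, and those of the Ctrl mice ran from 2981 to 3311 CPM with a median of 3123 CPM.

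Thus 6 of 7 CM mice lay above all Ctrl mice, and CM mouse 3334 lay below them. The difference was 0.42 (SE 0.11, adjusted p = 0.00794) and was called in 14 of 14 fits that left out 1 mouse (0.35 to 0.50). Slopes of log2(CPM + 1) on month over months 0 to 6 did not separate the arms for any member, and 0.0% of 815 miRNAs were called in the counts or 0.0% in the deposited CPM, with 68 and 64 at an unadjusted p under 0.05 by limma.

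Ratios of members within a library do not depend on the scaling, since both values share 1 library factor. The log2 ratio of each member to miR-17-5p was averaged over months 1 to 6 in each mouse. The ratio of miR-19a-3p was -1.59 ± 0.17 in CM and -1.34 ± 0.08 in Ctrl mice (n = 7 each), a difference of -0.26 (exact permutation test, two-sided, adjusted p = 0.014 over 6 ratios). That of miR-92a-3p was 1.57 ± 0.12 in CM and 1.89 ± 0.27 in Ctrl mice, a difference of -0.32 (exact permutation test, adjusted p = 0.014).

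The ratio of the passenger strand miR-17-3p was -3.39 ± 0.21 in CM and -3.12 ± 0.17 in Ctrl mice, a difference of -0.26 (exact permutation test, adjusted p = 0.014). That of miR-18a-5p differed by -0.15 (exact permutation test, adjusted p = 0.0323), a call that was lost in 9 of 14 repeats that left out 1 mouse (CM mice 3334, 3338, 3341, 3357 and 3368 and Ctrl mice 3339, 3342, 3346 and 3350), with adjusted p up to 0.0717. miR-20a-5p (-0.11, adjusted p = 0.116) and miR-19b-3p (0.68, adjusted p = 0.239) did not pass the exact permutation test. All 6 ratios have miR-17-5p below the line, so they are not independent of each other. Over months 1 to 4 alone none of the 6 passed (exact permutation tests, adjusted p = 0.0659 for each), with differences of -0.28 for miR-17-3p, -0.14 for miR-18a-5p, -0.28 for miR-19a-3p and -0.32 for miR-92a-3p.

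In the deposited CPM the ratios of miR-19a-3p (-0.22, adjusted p = 0.0326), miR-92a-3p (-0.19, adjusted p = 0.0315) and miR-18a-5p (-0.16, adjusted p = 0.0437) were also lower in CM mice by the exact permutation test. That of miR-17-3p was -0.20 with an adjusted p of 0.134, and that of miR-19b-3p was higher by 0.31 with an adjusted p of 0.0315 (exact permutation tests). Without the month 2 library of mouse 3349 the deposited ratio of miR-19a-3p was -0.17 (adjusted p = 0.105), whereas in the counts that of miR-20a-5p then passed at -0.14 (adjusted p = 0.014, exact permutation tests). The other count ratios that had passed were then -0.19 for miR-17-3p and -0.15 for miR-18a-5p (adjusted p = 0.02535 each). They were -0.22 for miR-19a-3p (adjusted p = 0.035) and -0.31 for miR-92a-3p (adjusted p = 0.014, exact permutation tests).

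Of the 7 members, 3 were called in the last CM libraries. miR-20a-5p, miR-17-5p and miR-18a-5p rose against month 0, whereas miR-17-3p, miR-19a-3p, miR-19b-3p and miR-92a-3p were not called in the counts. The last library of each of the 7 CM mice was compared with its month 0 library. Here 39.0% of 446 miRNAs were called in the counts and 45% of 453 in the reads. The 3 members were all called higher in the counts, where 23.1% of the 446 miRNAs were. Whether 3 of 7 exceeds that share was not tested. Without a filter on low counts miR-20a-5p was called (0.80, adjusted p = 0.0258), whereas miR-17-5p (0.76, adjusted p = 0.0571) and miR-18a-5p (0.63, adjusted p = 0.124) were not. The members' median log2 change was 0.44 and that of all miRNAs tested -0.06. The titles of the last library of mouse 3334 and of the month 6 library of Ctrl mouse 3335 look crossed, and both were used as labelled. Leaving out mouse 3334 kept the calls of all 3 members in the counts.

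miR-20a-5p, the most abundant strand with the seed of miR-17-5p, went from 7424.9 to 15482.4 CPM in mouse 3334, from 5453.0 to 13700.7 in mouse 3336, from 7751.2 to 15400.5 in mouse 3338 and from 6239.0 to 14593.0 in mouse 3341. In mouse 3357 it went from 7128.1 to 10388.0 CPM, in mouse 3370 from 6409.3 to 7416.8 and in mouse 3368 from 7560.7 to 8014.9. All 7 mice were higher at the end, and the last libraries of mice 3368 and 3370, taken at months 10 and 9, were the lowest. The log2 change was 1.01 (SE 0.23, adjusted p = 0.00499), and it was called in 7 of 7 fits that left out 1 mouse (0.89 to 1.05).

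miR-17-5p went from 3374.5 to 5675.0 CPM in mouse 3334, from 2346.1 to 5051.0 in mouse 3336, from 2518.3 to 7148.0 in mouse 3338 and from 2775.5 to 5866.4 in mouse 3341. In mouse 3357 it went from 2754.3 to 4110.6 CPM, in mouse 3370 from 2362.2 to 2858.8, and in mouse 3368 it was lower at the end, 2988.5 and then 2346.2. The log2 change was 0.97 (SE 0.27, adjusted p = 0.0109), and it was 0.77 with an adjusted p of 0.0508 without mouse 3338.

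miR-18a-5p was 543.5 ± 105.4 CPM at month 0 and 856 ± 271 CPM in the last libraries (n = 7 each). It was higher at the end in 6 mice, most in mouse 3338 (495.2 to 1200.6 CPM), and lower in mouse 3368 (686.6 to 603.0 CPM). The log2 change was 0.84 (SE 0.26, adjusted p = 0.0193). With the mouse as a block it was 0.75 (adjusted p = 0.062), and the call was also lost without mouse 3336, 3338 or 3341.

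miR-17-3p, cut from the same hairpin as miR-17-5p, was 288 ± 38.4 CPM at month 0 and 248 ± 26.5 CPM at the end, and was lower at the end in 7 of 7 mice, with a log2 change of -0.07 (SE 0.17, adjusted p = 0.768). miR-19a-3p was higher at the end in 4 of 7 mice and fell to 661.1 CPM from 1399.2 in mouse 3370 and to 1100.6 from 3038.1 in mouse 3368 (log2 change 0.12, adjusted p = 0.771). With raw library sizes in place of TMM the median change of all miRNAs moved from -0.06 to -0.25, and the log2 changes were -0.28 for miR-17-3p, -0.14 for miR-19a-3p, 0.71 for miR-17-5p and 0.75 for miR-20a-5p. miR-17-5p and miR-20a-5p lay above the median of all miRNAs and were called under both scalings, whereas miR-18a-5p was not called with raw library sizes (0.57, adjusted p = 0.0562) and the sign of miR-19a-3p turned.

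For miR-92a-3p the counts gave 0.44 (SE 0.32, adjusted p = 0.276). In the deposited CPM it was 8057 ± 1117 CPM at month 0 and 11614 ± 2841 CPM at the end (n = 7 each), with 0.55 (SE 0.19, adjusted p = 0.0275) from the reads, and 0.51 (adjusted p = 0.0909) with the mouse as a block. Without mouse 3334, 3336, 3338 or 3341 the reads gave 0.46 to 0.54 and no call. miR-19b-3p was 3863 ± 1597 and then 5698 ± 2157 deposited CPM, with 0.57 (adjusted p = 0.113) from the reads and 0.32 (adjusted p = 0.742) from the counts. Without mouse 3368 the reads gave 0.82 (adjusted p = 0.0209) for miR-19b-3p. The ranges of month 0 and of the last libraries overlapped for both.

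**Figure D4:**
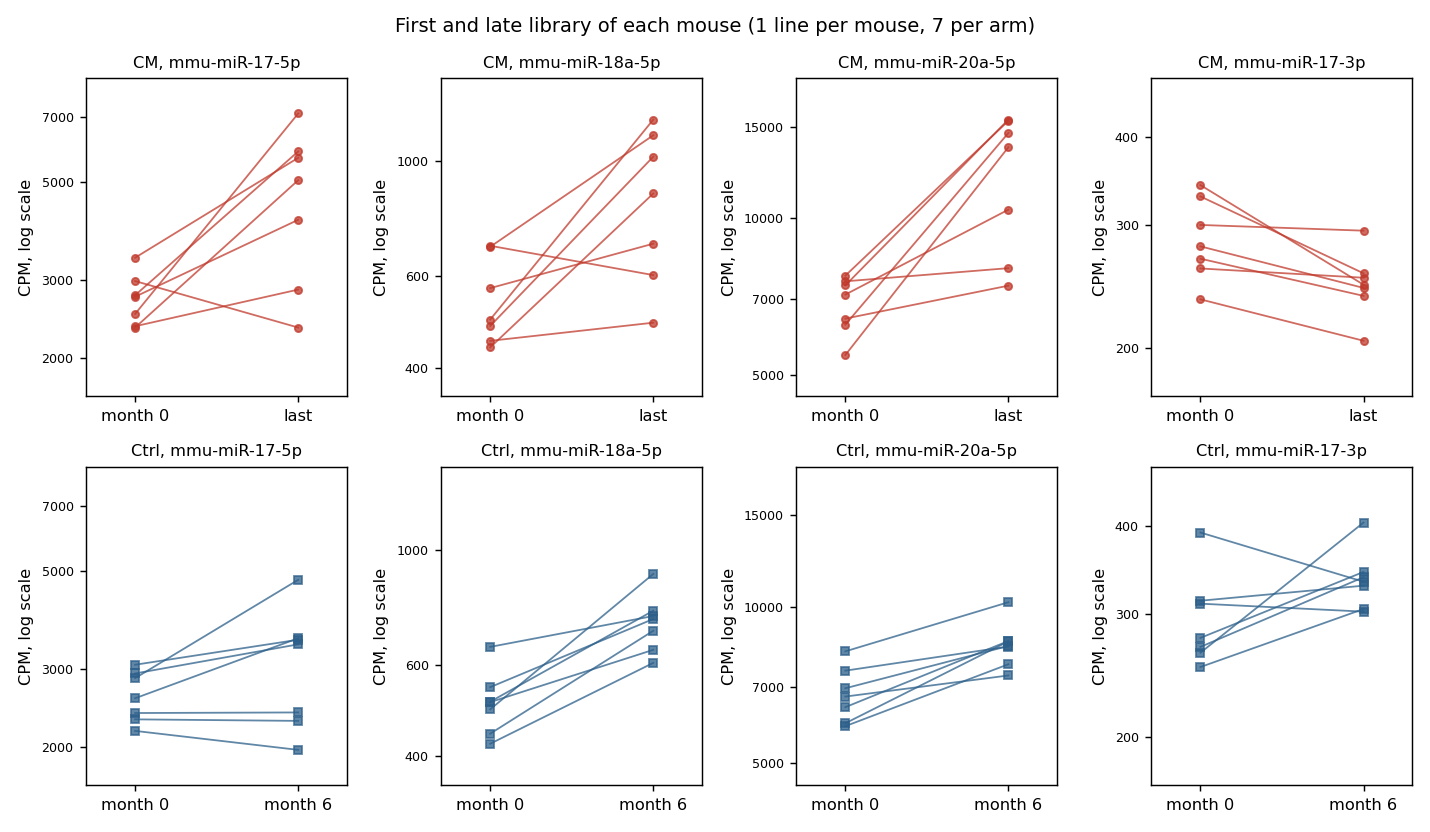
CPM from the counts (log scale) of miR-17-5p, miR-18a-5p, miR-20a-5p and miR-17-3p in the first and the late library, 1 line per mouse. The upper row shows the 7 CM mice from month 0 to the last library and the lower row the 7 Ctrl mice from month 0 to month 6. miR-20a-5p is higher at the end in all 7 CM and all 7 Ctrl mice, and miR-17-3p is lower in all 7 CM mice.

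Ctrl mice at month 6 give the change over time without the fusion, and 20.5% of 474 miRNAs were called against month 0 in the counts and 21.9% of 461 in the reads. miR-18a-5p was the 1 member called. It went from 509.8 to 762.9 CPM in mouse 3335, from 543.7 to 735.4 in mouse 3339, from 649.9 to 745.1 in mouse 3340 and from 508.8 to 641.5 in mouse 3342, and in mice 3346, 3349 and 3350 it reached 605.5, 897.8 and 698.0 CPM from 423.2, 492.8 and 442.5. It was higher at month 6 in 7 of 7 mice, with a log2 change of 0.52 (SE 0.12, adjusted p = 0.00675).

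miR-20a-5p was also higher in 7 of 7 Ctrl mice, from 6818 ± 840 to 8476 ± 891 CPM, but did not pass (0.33, SE 0.12, adjusted p = 0.069). miR-17-5p changed by 0.25 (adjusted p = 0.295), and miR-17-3p was called in the reads without mouse 3342 only (0.39, adjusted p = 0.0441). miR-18a-5p was therefore called higher late in both arms, and whether the arms differed was tested directly.

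That test, added after the levels had been seen, set the change from month 0 to the last library of CM mice against the change to month 6 of Ctrl mice. It called 14.8% of 512 miRNAs in the counts and 16.9% of 496 in the reads. In the counts no member passed: miR-17-5p differed by 0.69 (adjusted p = 0.127), miR-20a-5p by 0.65 (adjusted p = 0.0795) and miR-18a-5p by 0.29 (adjusted p = 0.469). In the reads miR-20a-5p passed with 0.82 (SE 0.26, adjusted p = 0.0274). It no longer passed without CM mouse 3336 or 3341 or Ctrl mouse 3339, 3340 or 3346 (0.71 to 0.89), and with the mouse as a block it did not (0.73, adjusted p = 0.0556).

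CM mouse 3368, sampled last at month 10, decided part of this. Without it the counts called miR-17-5p (0.74, adjusted p = 0.048) and miR-20a-5p (0.68, adjusted p = 0.0245), and the reads gave 1.07 for each with an adjusted p of 0.0101 for miR-17-5p, and called miR-92a-3p at 0.61 (adjusted p = 0.0299). The arms were not sampled at matched times in this test, since the last CM libraries were from months 4 to 10 and the Ctrl libraries from month 6.

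The strands of the Mir17 hairpin were also compared with each other. The ratio of miR-17-5p to miR-17-3p was 9.57 ± 1.42 (8.36 to 12.6) in CM mice at month 0 and 18.95 ± 6.53 (9.52 to 29.3) in their last libraries (n = 7 each). In Ctrl mice it was 9.00 ± 1.67 at month 0 and 9.22 ± 2.36 at month 6. Most of the last CM libraries lay above the range of month 0, and that of mouse 3368, at 9.52, lay within it.

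The log2 ratio of miR-17-3p to miR-17-5p fell by 0.92 in CM mice and by 0.02 in Ctrl mice, and was lower at the end in 7 of 7 CM mice, or in 6 of 7 in the deposited CPM. The change within CM mice did not pass after adjustment (exact sign flips over mice, adjusted p = 0.0937 in the counts and 0.107 in the deposited CPM, over 24 tests). Sign flips over 7 mice allow p down to 0.0156 only, the value reached in the counts before adjustment. This test could therefore hardly pass over 24 tests, and no conclusion is drawn from it. The difference between the CM and the Ctrl change was -0.90 (exact permutation test over mice, two-sided, adjusted p = 0.014 over 12 ratios), and -1.09 in the deposited CPM (exact permutation test, adjusted p = 0.014). It lay between -1.03 and -0.77 when each mouse was left out. The ratio of miR-18a-5p to miR-17-5p changed by -0.10 in CM and by 0.31 in Ctrl mice, a difference of -0.40 (exact permutation test, adjusted p = 0.014), and -0.47 in the deposited CPM (exact permutation test, adjusted p = 0.0157). The ratios of the other 4 members did not differ between the arms by this test, and these tests too were added after the levels had been seen.

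The cell markers moved in the same libraries. The summed level of the 5 progenitor markers was 919.6 to 2267 CPM at month 0 and 2619 to 12437 CPM in the last CM libraries, and 3 of 5 were called higher (miR-126a-3p, miR-126a-5p and miR-196b-5p). Lymphocyte markers summed to 29726 to 69658 CPM and then 9550 to 58452 CPM, with miR-150-5p and miR-342-3p called lower of 3. Myeloid markers summed to 5390 to 39990 CPM and then 2016 to 6308 CPM, with miR-223-3p called lower of 2, and erythroid markers to 40542 to 136377 CPM and then 29344 to 83218 CPM, with 3 called higher and 1 lower of 7. The sum of miR-142a-3p and miR-142a-5p was 63340 to 109599 CPM and then 39132 to 83341 CPM, lower at the end in every CM mouse. Vessel wall markers (miR-143-3p and miR-145a-5p) summed to 273.7 to 745.6 CPM and then 19.92 to 1587 CPM, higher at the end only in mice 3334 and 3368.

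In Ctrl mice the progenitor sum was 886.5 to 1527 CPM at month 0 and 1199 to 3116 CPM at month 6, and the lymphocyte sum 35723 to 67829 and then 27639 to 50350 CPM. The G number differed between the month 0 and the last library in 6 of 7 CM mice, mouse 3336 being the 1 with both in G3. There miR-17-5p rose by 1.11 and miR-20a-5p by 1.33 on the log2 scale. The part of cell make-up and of the G number in the late changes was not tested.

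The other strands of the cluster gave a second reading of the same hairpins. Of 5 listed, 4 were tested in the last CM libraries and 2 were called higher, beside 23.1% of all 446 miRNAs tested. The 2 strands were miR-18a-3p (1.25, SE 0.27, adjusted p = 0.00295) and miR-92a-1-5p (2.11, SE 0.50, adjusted p = 0.00545), the latter from the chromosome 14 copy of miR-92a alone. miR-20a-3p (0.51, adjusted p = 0.173) and miR-19b-1-5p (-0.03) did not pass. In Ctrl mice 0 of 4 were called at month 6. In the test between the arms miR-92a-1-5p passed with 2.12 (SE 0.58, adjusted p = 0.0163), and miR-18a-3p did not in the counts (0.82, adjusted p = 0.0843) but did in the reads (0.94, adjusted p = 0.0429).

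The miR-106a-363 cluster on the X chromosome, carries near copies of 5 members. Of 10 strands listed 5 were tested and 4 were called lower in the last CM libraries, where 15.9% of all 446 miRNAs tested were called lower: miR-20b-5p (-1.10, adjusted p = 0.00759), miR-106a-5p (-1.11, adjusted p = 0.00526), miR-363-3p (-0.98, adjusted p = 0.00889) and miR-18b-5p (-0.91, adjusted p = 0.0191). Ctrl mice at month 6 had 4 of 6 lower, beside 46 of all 474 miRNAs tested. Among these 4 strands were miR-20b-5p (-0.79, adjusted p = 0.0166) and miR-106a-5p (-0.57, adjusted p = 0.0369). miR-106a-5p and miR-17-5p, which differ at 1 base, were thus on opposite sides of month 0 in the last CM libraries. With size factors of DESeq2 or raw library sizes 4 strands of this cluster were again called lower in the last CM libraries, whereas in Ctrl mice raw library sizes left 3.

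Of the miR-106b-25 cluster 6 of 6 strands were tested and 4 were called higher in the last CM libraries, beside 23.1% of all miRNAs tested: miR-106b-3p (1.21, adjusted p = 0.000567), miR-93-5p (0.76, adjusted p = 0.0144), miR-93-3p (1.25, adjusted p = 0.00159) and miR-25-5p (1.60, adjusted p = 0.00295). miR-106b-5p was at -0.44 (adjusted p = 0.113), and with raw library sizes 1 strand of this cluster was called lower. In Ctrl mice at month 6, 2 of 6 were called higher, miR-93-3p (0.89) and miR-106b-3p (1.15), beside 51 of all 474 miRNAs tested. Between the arms miR-25-5p (1.98, adjusted p = 0.011) and miR-106b-5p (-0.92, adjusted p = 0.0342) differed.

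This cluster also had calls between CM and Ctrl mice at month 1, where 14.6% of all 472 miRNAs tested were called higher. At that month 4 of 6 strands were called higher in CM mice, miR-106b-3p (2.26, SE 0.52, adjusted p = 0.00832), miR-25-3p (1.11), miR-25-5p (0.99) and miR-93-3p (0.86), and 3 were with raw library sizes. Over the mouse means of months 1 to 6, 4 of 6 were called higher, beside 110 of all 815 miRNAs tested, with miR-106b-3p at 0.81 (SE 0.10, adjusted p = 0.0001 by limma). Of the cluster's own other strands miR-19b-1-5p was called lower in CM mice at month 1 (-1.28, adjusted p = 0.00531) and over the mouse means (-0.59, adjusted p = 0.00195).

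The validation cohort was compared at point 5, with 6 CM and 6 Ctrl mice. No member was called, and 0.0% of 930 miRNAs were called by limma, with 54 at an unadjusted p under 0.05. miR-17-5p was 54593, 18554, 14217, 25526, 21400 and 7662 CPM in CM mice 2684, 2685, 2686, 2700, 2709 and 2718, and 16116, 18394 and 22145 CPM (lowest, median and highest) in Ctrl mice. miR-20a-5p was 138366, 42185, 32814, 68084, 54841 and 9327 CPM in the same CM mice and 24738 to 54487 CPM in Ctrl mice.

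CM mouse 2684 was the highest and CM mouse 2718 the lowest of all 12 for both, and the Ctrl mice lay between them. The log2 differences of the 7 members were between -0.02 and 0.17 with SE of 0.26 to 0.44 and adjusted p of at least 0.979. Without mouse 2684 they were between -0.27 and 0.00, and without mouse 2718 they were 0.51 for miR-20a-5p, 0.35 for miR-17-5p and 0.31 for miR-92a-3p, with no member called. The ratio of miR-17-5p to miR-17-3p was 6.84 ± 4.93 (2.78 to 16.6) in CM and 5.47 ± 0.63 in Ctrl mice (n = 6 each), and no ratio differed between the arms (exact permutation tests, adjusted p = 0.933). The labels do not say which month point 5 stands for, and these levels were normalised separately from those of the training cohort.

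**Figure D5:**
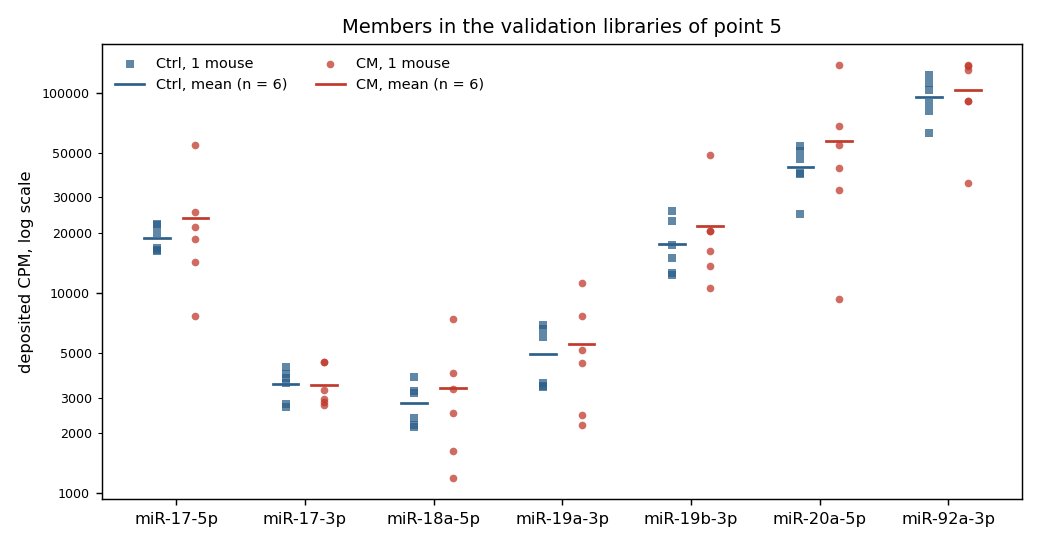
Deposited CPM (log scale) of each member in the 12 validation libraries of point 5, 1 point per mouse (6 CM, 6 Ctrl) with a bar at the mean of each arm. CM points reach above and below the Ctrl points for miR-17-5p and miR-20a-5p, where the highest is mouse 2684 and the lowest is mouse 2718.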

How the data were processed

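Raw counts of mature miRNAs in the training cohort were deposited as made by the authors with mirTOP at settings not given in the sources used here. CPM of both cohorts was deposited after TMM scaling in edgeR by the authors, following adapter trimming with cutadapt and alignment with Bowtie. The study's methods name mm9 and the submitters' processing notes GRCm38, so mm9 coordinates come from the annotation used here and not from the files. The deposited CPM was taken as a TMM-scaled signal, since its columns do not sum to a fixed total. All its values were whole multiples of 1 read within 0.01, and these reads gave an added alternative.

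Samples were grouped by their labels. Counts were tested with edgeR 4.0.16 (quasi-likelihood, TMM, filterByExpr, R 4.3.3) on the libraries compared, and mouse means, slopes and validation CPM (1 CPM or more in as many libraries as the smaller group) with limma 3.58.1 on log2(CPM + 1), which understates changes of low miRNAs. Ratios were tested by exact permutation over mice (Python 3.11.15, scipy 1.17.1), where 7 against 7 allows p down to 0.000583. P-values were adjusted by Benjamini-Hochberg and called under 0.05. Printed CPM was scaled over all training libraries, whereas each fit scaled its own. Same-numbered libraries come from the same mouse, and their deviations correlated between -0.126 and 0.14.

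Alternatives were DESeq2 1.42.0, its size factors, raw library sizes, no filter, a pseudocount of 0.1, the deposited CPM, a block on mouse, the G number or sex as a covariate, omission of mice 3334 and 3335, whose month 6 and 6.5 titles look crossed, and omission of each mouse. Fits were tested on simulated counts. The members, related miRNAs and marker lists were chosen with earlier results of these data known. Related strands and markers were named as whole lists, and the miRNAs most like the cluster by Pearson's r. Labels give 10 CM and 6 Ctrl validation mice and the series text other numbers, and the labels were followed.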

Additional observations from a re-analysis of the deposited data

Results flagged for a closer look

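Dixon's test for a sample far from the others was run on 210 groups of 4 to 10 libraries, those of each arm at months 0 to 6 of the training cohort in both tables and those of validation point 5, for 7 members, and 31 groups held such a sample, where chance gives about 1 in 20. Those from the table by which a member is described in the report are given here. In Ctrl mice at month 2, mouse 3349 was lowest for miR-17-5p (764.0 CPM, others 2253 to 2520), miR-18a-5p (131.4, others 498.4 to 594.2) and miR-20a-5p (767.2, others 6395 to 8735). It was highest for miR-17-3p (628.3, others 271.0 to 322.5) and lowest for miR-92a-3p in the deposited CPM (4514.0, others 7760 to 11642). In CM mice at month 6, mouse 3341 was highest for miR-17-5p (5866.4 CPM, others 3042 to 3626), miR-18a-5p (1018.8, others 709.7 to 766.8) and miR-20a-5p (14593.0, others 7910 to 8651). This was the last library of that mouse.

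In CM mice at month 1, mouse 3336 was highest for miR-18a-5p (951.8 CPM, others 444.7 to 571.7), miR-19a-3p (2342.9, others 776.7 to 1177) and miR-20a-5p (11440.5, others 5830 to 7776). miR-19a-3p was highest at month 0 in CM mouse 3368 (3038.1 CPM, others 923.4 to 1399). In the counts miR-19b-3p was lowest in CM mouse 3370 at month 4 (381.2 CPM, others 3014 to 5365), in Ctrl mouse 3340 at month 2 (180.7, others 1317 to 2681) and in Ctrl mouse 3349 at month 4 (39.95, others 969.9 to 3229). miR-92a-3p was lowest in Ctrl mouse 3350 at month 5 (6246.9 CPM, others 10411 to 13563), in Ctrl mouse 3335 at month 0 in the deposited CPM (7971.7, others 9650 to 10786) and in validation CM mouse 2718 at point 5 (35507.9, others 90978 to 137889).

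Late changes that differed between CM and Ctrl mice by a test of the difference were those of the log2 ratio of miR-17-3p to miR-17-5p (-0.9005 in the counts, -1.094 in the deposited CPM) and of miR-18a-5p to miR-17-5p (-0.4027 and -0.4742), and that of miR-20a-5p in the reads (0.8225).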

How the results depend on the processing

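No called result changed direction under the alternatives run. Apart from the fits that left out each mouse in turn, 889 values for single members kept their side of the threshold, 8 newly passed and 6 no longer passed. Leaving out 1 mouse changed further calls of members, which are not in these totals. The number of members called was 0 at month 1 and 1 in the reads, 0 at month 2 with 1 in the reads and 0 to 3 when each mouse was left out, and 0 at month 3 with 1 by DESeq2 and 0 to 1 when each mouse was left out. In the last CM libraries it was 3, with 1 without a filter on low counts and 1 to 3 when each mouse was left out. In Ctrl mice at month 6 it was 1, with 2 by DESeq2 and 0 without a filter. For the late change between the arms it was 0, with 1 in the reads and 0 to 2 when each mouse was left out. For the mouse means it was 0 in the counts and 1 in the deposited CPM, with or without the month 2 library of mouse 3349.

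The CM minus Ctrl differences of the log2 ratios to miR-17-5p over months 1 to 4 alone were -0.2818 for miR-17-3p, -0.1449 for miR-18a-5p, -0.2849 for miR-19a-3p and -0.3233 for miR-92a-3p, each with an adjusted p of 0.0659 (exact permutation tests). Over months 1 to 6 in the deposited CPM the difference was -0.2038 for miR-17-3p and 0.3105 for miR-19b-3p, and without the month 2 library of mouse 3349 these differences were -0.1405 and 0.3847, with -0.1731 for miR-19a-3p. Without that library the difference in the counts was -0.1422 for miR-20a-5p, and without mice 3334 and 3335 it was -0.1459 for miR-18a-5p. When each mouse was left out the differences in the counts ran from -0.183 to -0.107 for miR-18a-5p and from -0.154 to -0.0714 for miR-20a-5p. The cause of these shifts was not tested.

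The replicate block on mouse took the late change of miR-18a-5p in CM mice to 0.75 (adjusted p = 0.062) and in the reads removed the late calls of miR-18a-5p (0.68, adjusted p = 0.0661), of miR-92a-3p and, between the arms, of miR-20a-5p. It changed no other call of a member. The fit with the G number was not run at month 4, and at the other months from 0 to 6 it called no member. Printed SDs, SEs and p-values include the spread between mice, whereas the CPM given for a count of 3 reads covers counting error only.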

Other observations

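The 90 validation libraries outside point 5 held 1744 to 76906 reads (median 20808), and each member had 0 to 4 reads in each of them. miR-18a-5p was above 0 in 26 of these libraries, miR-92a-3p in 22, miR-17-5p in 20 and miR-19b-3p in 18. miR-20a-5p was above 0 in 10, miR-17-3p in 6 and miR-19a-3p in 5. A count of 3 reads corresponds there to 50.64 to 292.9 CPM, against 6.457 to 12.15 CPM at point 5. The lowest level of any member at point 5 was 1185.2 CPM, that of miR-18a-5p in CM mouse 2718. Why the members had so few reads outside point 5 was not tested, and no comparison was made.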
